A study of Homo sapiens with 64 samples.

Results

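The 8 intestinal lineage transcription factors CDX1, CDX2, HNF4A, GATA6, KLF4, KLF5, SOX9 and ATOH1 were examined by RNA sequencing in 6 human colorectal cancer cell lines. They were taken by symbol from the 54127 genes listed by Ensembl identifier in the deposited counts, by a rule that uses no measured value. The 64 libraries came from cells grown as spheroids in non-adherent culture with bFGF and EGF. Of these, 48 were cells of the lines HCT15, DLD1, SW948, SW48, HT55 and RKO that had been stained with CFSE, a dye diluted at each cell division, and sorted 6 days later into bright label-retaining cells (LRCs) and non-LRCs (the population labelled BULK), with 4 replicates of each. The other 16 were unsorted cells labelled DLD1, with CFSE or unlabeled, harvested on day 1 or on a later day that the labels call day 5 and the series' design text day 6, again with 4 replicates each; the later day is called day 5 here. LRCs and non-LRCs therefore both carried the dye, and only the unsorted libraries had an undyed counterpart. No line stands for more than a single tumor, and whether the 6 lines come from separate tumors was not examined. An LRC is defined by how much dye it kept, not by a marker. Replicates carry the numbers 1 to 4 in the labels. The study's methods call them biological replicates, and neither source says whether they were separate cultures, so p-values measure the spread between these samples.

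CDX1 and CDX2 are caudal homeodomain proteins that specify intestinal epithelium and turn on genes of the absorptive brush border. HNF4A, a nuclear receptor, and GATA6, a zinc finger protein, maintain enterocyte gene programs together with them. KLF5 is known from proliferating crypt cells and KLF4 from post-mitotic cells nearer the lumen, SOX9 from the crypt base and Paneth cells, and ATOH1 from the commitment of progenitors to secretory fates. Colorectal tumors keep or lose these factors to different degrees, and loss of CDX2 is known from poorly differentiated tumors.

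Between 12237225 and 20913455 reads per library were counted on genes (median 15063858). Before any comparison, the unsorted libraries labelled DLD1 were set against the sorted ones, and all 16 correlated more closely with every sorted HCT15 library than with any sorted DLD1 library. Over 16899 genes, Pearson's r of log2 CPM (counts scaled to library size) was 0.935 to 0.990 with sorted HCT15 and 0.907 to 0.953 with sorted DLD1, while sorted DLD1 and sorted HCT15 libraries correlated at 0.942 to 0.952 with each other. Of 337 genes that differed by at least 3 on the log2 scale between sorted DLD1 and HCT15, 85.2% to 99.7% lay nearer to HCT15 in each unsorted library. For example, among genes chosen after their values were seen, CFTR, a chloride channel, was at 122 to 245.5 CPM in sorted DLD1, at 0.176 to 0.613 CPM in sorted HCT15 and at 0.124 to 0.560 CPM in the unsorted libraries. H19, an imprinted noncoding RNA, was at 501 to 624.6 CPM, 5.83 to 19.4 CPM and 4.74 to 20.7 CPM in the same order. HNF4A behaved likewise, at 56.2 to 79.0 CPM in sorted DLD1, 32.1 to 42.1 CPM in sorted HCT15 and 27.3 to 43.5 CPM in the unsorted libraries. On the log2 CPM scale, all 16 unsorted libraries lay nearer to the sorted HCT15 mean than to the sorted DLD1 mean for HNF4A and SOX9, 14 did for GATA6 and 13 for KLF5. KLF4 and CDX2 went the other way, with 14 and 11 of 16 nearer to sorted DLD1. Which label is at fault cannot be told apart here, so the unsorted libraries are called the libraries labelled DLD1 and are compared only with each other, and results of LRCs against non-LRCs across the 6 lines are also given without the sorted DLD1 libraries. Levels between lines are given with them only.

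**Figure D1:**
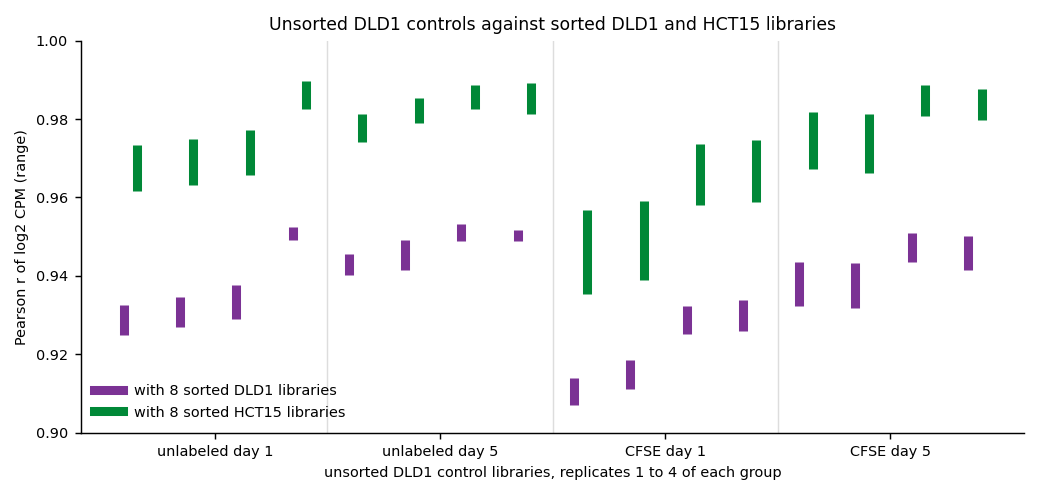
Range of the correlations (Pearson's r of log2 CPM, axis from 0.9 to 1) of each unsorted library labelled DLD1 with the 8 sorted DLD1 libraries and with the 8 sorted HCT15 libraries, by control group. In all 16 libraries the correlations with sorted HCT15 lie above those with sorted DLD1.

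RKO stood apart in the markers of its labelled tissue. The summed level of 7 epithelial genes was 217.4 CPM in RKO non-LRCs and reached 15900 CPM in HT55 non-LRCs. EPCAM, an epithelial adhesion protein, had means of 16.2 CPM and 17.9 CPM in RKO non-LRCs and LRCs and of 365 to 1634 CPM in the other sorted groups, and CDH1 (E-cadherin) was at 0.93 CPM and 1.07 CPM in RKO. The highest summed level of 5 leukocyte markers was also in RKO, at 1336 CPM in its LRCs, and was nearly all CD68, a lysosomal protein; CD3E had no read in any library. The summed markers of endothelium reached at most 2.78 CPM in a group, those of fibroblasts 10.3 CPM, of hepatocytes 0.491 CPM and of neurons 2.89 CPM, and the 4 gastric markers 108.9 CPM in DLD1 non-LRCs. The part of cell identity in the RKO results was not tested.

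Promoter sequence is shown for CDX2, HNF4A and KLF4, the members whose levels the results below turn on most and for which RefSeq windows were at hand. Windows of 250 bases upstream of annotated starts matched 6 of the 8 members, with 2 starts each for HNF4A and KLF5, and CDX1 and SOX9 had no entry. Short motifs were searched on both strands, with the share of all 35116 windows that hold each. These were TTTATGG (2.295%) and TTTATTG (3.67%) for caudal factors, AGATAA (9.17%) for GATA factors, CAAAGTC (2.91%) for HNF4A, GGGTGTG (6.63%) for KLF factors, ACAATGG (2.62%) for SOX factors and CAGATGG (3.55%) for ATOH1. No searched motif overlapped another in the windows of the members. Capitals mark the matches in the windows below, which are written 5′ to 3′ on the gene's strand with GRCh38.p14 coordinates.
CDX2, chr13:27969316-27969565, minus strand: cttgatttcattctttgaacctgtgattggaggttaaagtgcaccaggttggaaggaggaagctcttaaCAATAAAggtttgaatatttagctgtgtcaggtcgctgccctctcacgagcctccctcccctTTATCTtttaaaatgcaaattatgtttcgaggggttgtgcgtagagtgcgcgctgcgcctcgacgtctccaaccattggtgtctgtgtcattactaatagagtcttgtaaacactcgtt
HNF4A, upstream start, chr20:44355449-44355698, plus strand: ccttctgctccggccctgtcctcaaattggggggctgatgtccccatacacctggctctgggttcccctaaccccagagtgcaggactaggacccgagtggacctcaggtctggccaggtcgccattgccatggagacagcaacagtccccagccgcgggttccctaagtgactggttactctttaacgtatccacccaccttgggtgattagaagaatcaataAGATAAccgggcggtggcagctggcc
HNF4A, downstream start, chr20:44400989-44401238, plus strand: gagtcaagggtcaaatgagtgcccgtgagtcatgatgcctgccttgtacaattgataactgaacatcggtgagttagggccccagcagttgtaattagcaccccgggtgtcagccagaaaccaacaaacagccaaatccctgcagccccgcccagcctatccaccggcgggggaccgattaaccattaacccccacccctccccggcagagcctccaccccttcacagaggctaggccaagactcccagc
KLF4, chr9:107489770-107490019, minus strand: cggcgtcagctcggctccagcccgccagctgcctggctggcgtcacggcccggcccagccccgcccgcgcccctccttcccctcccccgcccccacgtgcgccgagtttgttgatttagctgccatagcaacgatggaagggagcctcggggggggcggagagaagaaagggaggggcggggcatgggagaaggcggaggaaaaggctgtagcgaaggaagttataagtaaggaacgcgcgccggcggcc

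The CDX2 window held the caudal motif TTTATTG on the opposite strand, 181 to 175 bases before the start, and the GATA motif AGATAA on the opposite strand, 119 to 114 bases before it. The upstream HNF4A window held AGATAA 26 to 21 bases before the start. The downstream HNF4A window and the KLF4 window held none of the motifs, and KLF5 held ACAATGG in 1 of its windows. A match describes letters in the window and not a bound site.

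The first question was how much of each factor the lines expressed. Levels are means of CPM ± SD over 4 non-LRC libraries unless LRCs are named. Among genes tested with edgeR's quasi-likelihood test, 7 of the 8 members could be tested and 7 differed between lines in any direction, where 98.3% of all genes did so. Of the 105 tests of a member between a pair of lines, 91 were called, where 71.1% of all such tests over genes were called. The order of the lines differed from member to member, and RKO was lowest for CDX2, HNF4A, KLF4, KLF5 and SOX9.

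CDX1 (GRCh37 chr5:149546341-149564121, plus strand) was expressed in 2 lines. SW948 non-LRCs were at 84.8, 94.6, 75.4 and 85.3 CPM in replicates 1 to 4, and HT55 non-LRCs at 50.7, 75.1, 66.5 and 59.7 CPM. The highest HT55 library was just under the lowest SW948 library, so the groups did not overlap, and the difference was called (adjusted p = 0.0140 by edgeR). In the other 4 lines CDX1 had between 0 and 7 reads per sorted library.

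CDX2 (GRCh37 chr13:28535055-28543452, minus strand) was high in 4 lines. It was at 394.5 ± 115.6 CPM in HCT15, 315.1 ± 30.7 CPM in HT55, 303.7 ± 24 CPM in SW948 and 247.1 ± 26.8 CPM in DLD1. No neighbors in that order were called as different by edgeR (adjusted p = 0.0842, 0.701 and 0.0967). Lines further apart in it were called. SW948 against HCT15 was at -0.37 on the log2 scale (adjusted p = 0.0355 by edgeR), DLD1 against HCT15 at -0.66 (0.000981) and HT55 against DLD1 at 0.36 (0.0407). SW48 followed at 37.1 ± 9.05 CPM and RKO at 20.8 ± 1.53 CPM, each below the line before it (adjusted p = 1.84e-13 and 9.99e-05).

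HNF4A (GRCh37 chr20:42984339-43061485, plus strand) was highest in SW948 and HT55, at 205.4 ± 17.8 CPM and 200.4 ± 9.44 CPM, which were not called as different (adjusted p = 0.876 by edgeR). DLD1 (72.0 ± 5.93 CPM) and SW48 (64.4 ± 4.53 CPM) came next and were not called as different either (adjusted p = 0.145), and HCT15 had 37.9 ± 3.29 CPM. RKO libraries had 0 to 3 HNF4A reads each. HNF4A-AS1, the antisense gene listed in the counts, had 2 reads over all 64 libraries.

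GATA6 (GRCh37 chr18:19749550-19782491, plus strand) was at 70.3 ± 3.72 CPM in DLD1 and 67.0 ± 2 CPM in SW948, which were not called as different (adjusted p = 0.626 by edgeR). HT55 had 40.6 ± 10.3 CPM, HCT15 29.7 ± 3.24 CPM and RKO 3.32 ± 0.376 CPM. SW48, which was high for KLF4 and KLF5, was lowest for GATA6 at 0.567 ± 0.379 CPM.

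KLF4 (GRCh37 chr9:110247133-110252763, minus strand) differed between all 15 pairs of lines. Its order was SW48 (173.0 ± 31.7 CPM), HT55 (128.1 ± 10.9 CPM), HCT15 (61.6 ± 2.36 CPM), SW948 (49.3 ± 6.90 CPM), DLD1 (38.0 ± 3.52 CPM) and RKO (3.69 ± 0.850 CPM). KLF5 (GRCh37 chr13:73629114-73651679, plus strand) was also highest in SW48 and HT55, at 640.6 ± 147.9 CPM and 556.0 ± 18.2 CPM, which were not called as different (adjusted p = 0.0889 by edgeR). It fell in order through SW948, DLD1 and HCT15 (417.0, 304.1 and 215.4 CPM) to 3.65 ± 0.272 CPM in RKO.

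SOX9 (GRCh37 chr17:70117161-70122557, plus strand) was highest in DLD1, at 713.0 ± 14.9 CPM. HT55 (483.8 ± 31.7 CPM) and HCT15 (470.6 ± 92.0 CPM) were not called as different (adjusted p = 0.566 by edgeR), and SW948, SW48 and RKO followed at 334.6, 262.3 and 10.3 CPM. ATOH1 (GRCh37 chr4:94749904-94752115, plus strand) had 73 reads over all 64 libraries and did not pass the low-count filter. Without that filter it was called between lines, where 61.2% of all genes were. The CFSE day 1 libraries labelled DLD1 held 14 of its reads, 0 to 7 each, and the other unsorted groups 0. SW948 was the line with ATOH1 reads in all 8 of its libraries, at 0.126 to 0.656 CPM.

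**Figure D2:**
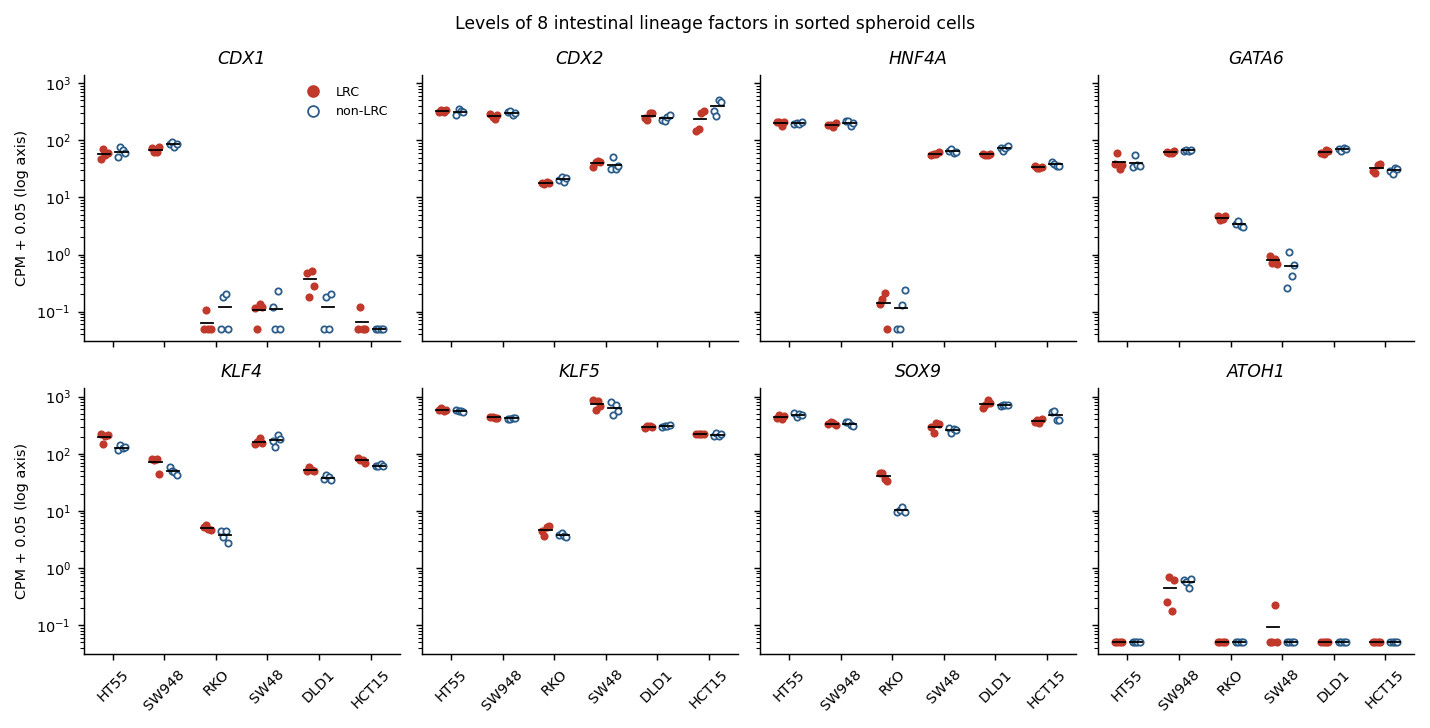
Levels of the 8 members by line and population (CPM plus 0.05 on a log axis, 1 point per library, 4 libraries per group, horizontal lines for means). CDX1 is seen in HT55 and SW948, HNF4A is near 0 in RKO, and GATA6 is lowest in SW48.

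Levels per length (RPKM over union exons) allow members to be compared with each other, although the long union exons of HNF4A, 10167 bases, lower its value. In HT55 non-LRCs KLF5 led with 151.1 RPKM, followed by SOX9 (123.1 RPKM), CDX2 (89.6 RPKM), CDX1 (35.5 RPKM), KLF4 (35.0 RPKM), HNF4A (19.7 RPKM) and GATA6 (10.7 RPKM). SOX9 led in DLD1 (181.4 RPKM) and HCT15 (119.7 RPKM), KLF5 in SW48 (174.1 RPKM), and CDX2 in RKO at 5.91 RPKM.

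Across the 12 means of line and population, HNF4A and KLF5 (Pearson's r = 0.97 of log2 CPM) and KLF4 and KLF5 (r = 0.96) varied most alike among the members, and GATA6 and KLF4 least (r = 0.09). These values describe 6 lines and share the low level of RKO for most members. Among 11482 genes over the 48 sorted samples, the gene most like CDX1 was FABP1 (r = 0.986), that most like CDX2 was KCNMB4 (r = 0.979) and that most like HNF4A was LAD1 (r = 0.994). For GATA6 it was ANKEF1 (r = 0.981), for KLF4 GPRC5A (r = 0.975), for KLF5 ITGB4 (r = 0.991) and for SOX9 EPS8L2 (r = 0.984). The order of likeness changed with the measure: by Spearman's rho, FABP1 ranked 412 for CDX1 and LAD1 ranked 2 for HNF4A.

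Products of the factors followed lists chosen with earlier results of these data known. Between lines, 32 of 32 tested products and 57 of 57 tested other lineage factors differed, beside 98.3% of all genes. The levels of 3 products, named after their values were seen, show the range. FABP1, a fatty acid binding protein of enterocytes, was at 303 CPM and 333 CPM in HT55 and SW948 non-LRCs and at 0.31 CPM or less in the other 4 lines, the same 2 lines that expressed CDX1. CDH17, an intestinal cadherin, was at 1090 CPM in HT55, 1161 CPM in SW948, 490 CPM in DLD1, 383 CPM in HCT15, 35 CPM in SW48 and 0.76 CPM in RKO. VIL1 (villin) was at 1017 CPM in HT55 and 0.28 CPM in RKO.

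The next question was whether LRCs differed from non-LRCs in these factors. In bulk libraries, fewer cells that express a factor and less RNA of it per cell cannot be told apart. Across the 6 lines, 2 of the 7 tested members were called by edgeR with line as a covariate, where 22.9% of all genes were. KLF4 rose and HNF4A fell.

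KLF4 was higher in LRCs by 0.38 on the log2 scale (SE 0.07, adjusted p = 3.2e-05 by edgeR), and it was higher in 21 of 24 same-numbered pairs. In HT55 the LRC libraries were at 218.8, 149.1, 206.4 and 213.6 CPM and the non-LRC libraries at 115.9, 141.6, 124.1 and 131.0 CPM. In HCT15 they were at 85.1, 78.5, 77.2 and 68.0 CPM and at 60.2, 60.5, 65.1 and 60.5 CPM. In DLD1 they were at 50.0, 59.2, 51.2 and 49.5 CPM and at 35.4, 42.1, 39.8 and 34.8 CPM. LRCs lay above non-LRCs without overlap in these 3 lines and in RKO, at 5.02 ± 0.513 CPM against 3.69 ± 0.850 CPM. In SW948 every LRC library was above its same-numbered non-LRC library, but replicate 4 was only at 44.4 CPM against 42.0 CPM and the groups overlapped. SW48 went the other way, at 162.2 ± 16.3 CPM in LRCs against 173.0 ± 31.7 CPM in non-LRCs. Within single lines, in fits of each line on its own, KLF4 was called in DLD1 (0.49 on the log2 scale, adjusted p = 0.0041) and not in HT55 (0.63, adjusted p = 0.433), SW948 (0.53, 0.169), RKO (0.46, 0.0575), HCT15 (0.35, 0.0756) or SW48 (-0.08, 0.831). In HT55 it was called without replicate 2 (0.80, adjusted p = 0.000123 by edgeR), without a low-count filter (adjusted p = 0.00254), in one fit of all 48 samples (adjusted p = 0.0172) and by DESeq2 (adjusted p = 0.00752). In RKO it was called without replicate 3 (0.58, adjusted p = 0.04 by edgeR) and with the stricter filter of 10 counts in every sample (0.48, adjusted p = 0.0471), and in HCT15 by DESeq2 (adjusted p = 0.0122). The SW948 difference was called without replicate 4 (0.64, adjusted p = 0.00159 by edgeR), in one fit of all 48 samples (0.52, adjusted p = 0.0318), without a low-count filter (0.53, adjusted p = 2.365e-06) and with a replicate block (0.50, adjusted p = 0.00486), although same-numbered SW948 samples did not deviate together. Of all genes, 6.13% were called in HT55 without replicate 2 and 7.02% in SW948 without replicate 4. Leaving out any other replicate number in these lines called 0.0% of all genes, and so not KLF4. A difference between lines in the KLF4 effect was not called (adjusted p = 0.0682 by edgeR), while it was called with replicate number as a block (adjusted p = 0.00564), by DESeq2 (0.0465), with scaling by library size alone (0.0343), without a low-count filter (0.00319) and without replicate 2 (0.0175). The call across lines held without the sorted DLD1 libraries and without the RKO libraries.

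HNF4A was lower in LRCs by 0.15 on the log2 scale (SE 0.04, adjusted p = 0.0083 by edgeR), and it was lower in 17 of 20 pairs of the 5 lines with more than 3 HNF4A reads in every library. In DLD1 the LRC libraries were at 58.3, 56.2, 56.2 and 57.3 CPM and the non-LRC libraries at 72.4, 64.5, 71.9 and 79.0 CPM. In HCT15 they were at 35.1, 33.1, 32.1 and 33.8 CPM and at 42.1, 39.1, 35.4 and 35.2 CPM. LRCs lay below non-LRCs without overlap in both lines, and HT55 had nearly equal means, 201.1 CPM and 200.4 CPM. The call was lost without the sorted DLD1 libraries (-0.10, adjusted p = 0.137) and without replicate 1 (adjusted p = 0.0504). In DLD1 alone HNF4A was called (-0.31, adjusted p = 0.0084).

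The other members were not called across the lines. KLF5 differed by 0.10 on the log2 scale (adjusted p = 0.0911 by edgeR, and 0.0289 with replicate number as a block), SOX9 by 0.24 (0.127), CDX2 by -0.14 (0.237), CDX1 by -0.16 (0.301) and GATA6 by 0.04 (0.713). Without the RKO libraries SOX9 differed by -0.03 and GATA6 by -0.004, so their signs rested on RKO.

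**Figure D3:**
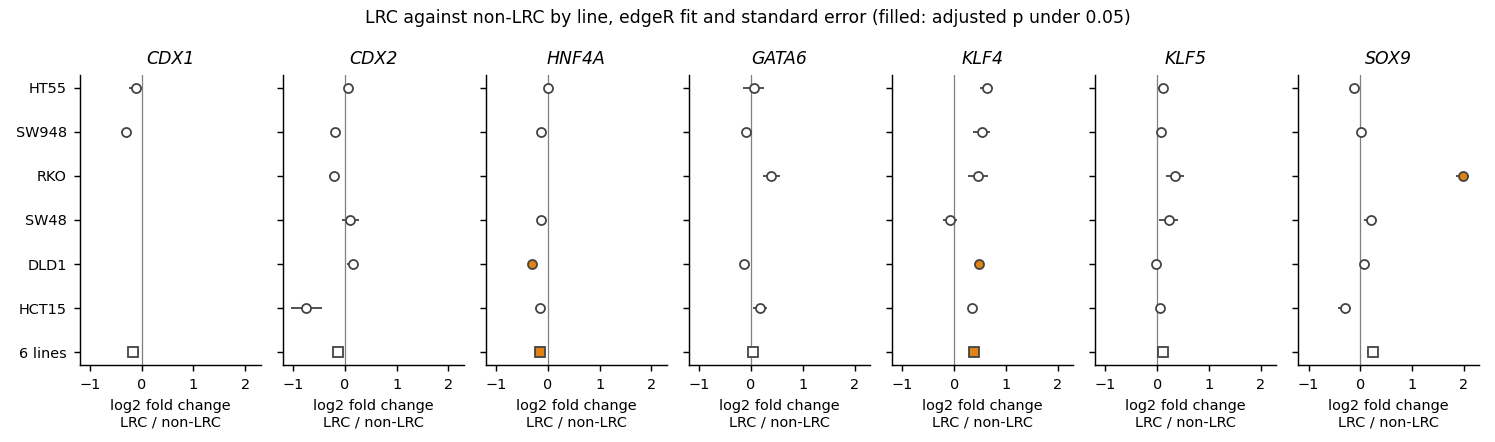
Log2 fold change of LRCs against non-LRCs for each tested member in each line and across the 6 lines, with filled symbols for an adjusted p under 0.05. Bars are standard errors derived from edgeR's fold change and F statistic. KLF4 lies above 0 in all lines except SW48, and SOX9 in RKO stands apart at 1.98.

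The effect of label retention differed between lines for SOX9 (adjusted p = 1.11e-12 by edgeR) and CDX2 (adjusted p = 0.0471), 2 of 7 tested members, where 14.3% of all genes were called. The SOX9 difference came to an adjusted p of 0.255 without RKO. The CDX2 call was lost without replicate 1, 3 or 4, without the sorted DLD1 libraries, without RKO and with scaling by library size alone (adjusted p = 0.0681 by edgeR), and with replicate number as a block its adjusted p was 2.63e-06. The block also called a difference between lines for GATA6 (adjusted p = 0.0266 by edgeR), which was not called without it (0.356), and 33.6% of all genes were called with it.

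In RKO, 1 of 5 tested members was called, where 41.5% of all genes were. SOX9 was at 45.7, 46.3, 36.1 and 32.9 CPM in LRCs against 9.39, 10.4, 11.6 and 9.64 CPM in non-LRCs. Every LRC library was well above every non-LRC library, by 1.98 on the log2 scale (SE 0.13, adjusted p = 2.07e-08 by edgeR), yet both were below the SOX9 level of any other line. SOX9-AS1, which lies on the opposite strand over SOX9, had 17 reads in RKO LRCs and 4 in non-LRCs in all; the strand used in counting is not given in the sources used here. CDX2 (-0.21, adjusted p = 0.0562), KLF4 (0.46, 0.0575), GATA6 (0.39, 0.0690) and KLF5 (0.34, 0.132) were not called.

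In DLD1, 2 of 6 tested members were called, KLF4 and HNF4A as above, where 14.6% of all genes were. The HNF4A call was lost without replicate 1 (-0.32 on the log2 scale, adjusted p = 0.0594 by edgeR) and without replicate 3 (-0.31, adjusted p = 0.0581). Same-numbered samples deviated together in DLD1, and the block added CDX2 (0.15 on the log2 scale, adjusted p = 0.00796 by edgeR) and GATA6 (-0.14, adjusted p = 0.0260), where 33.8% of all genes were called with the block.

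In HCT15, 0 of 6 tested members were called by edgeR, where 0.977% of all genes were. An unadjusted p under 0.05 was found for 3 members and for 2415 of 14017 genes. DESeq2 called 1 member and 3.77% of all genes. CDX2 was at 144.6, 157.2, 298.2 and 331.9 CPM in LRCs against 330.1, 265.1, 506.0 and 476.8 CPM in non-LRCs. Replicates 1 and 2 were lower than 3 and 4 in both populations, and the LRC library was the lower of each pair. The difference of -0.74 on the log2 scale was not called in the fit of HCT15 alone (adjusted p = 0.233). It was called in one fit of all 48 samples without a block (-0.76, adjusted p = 0.00794 by edgeR) and with the replicate block (-0.79, adjusted p = 9.29e-06). It was -0.95 in replicates 1 and 2 alone and -0.62 in replicates 3 and 4 alone, both called. The block also called KLF4 (0.34, adjusted p = 0.00177) and SOX9 (-0.29, adjusted p = 0.0351) in HCT15, so that 3 of 6 members were called with it, where 21.3% of all genes were.

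**Figure D4:**
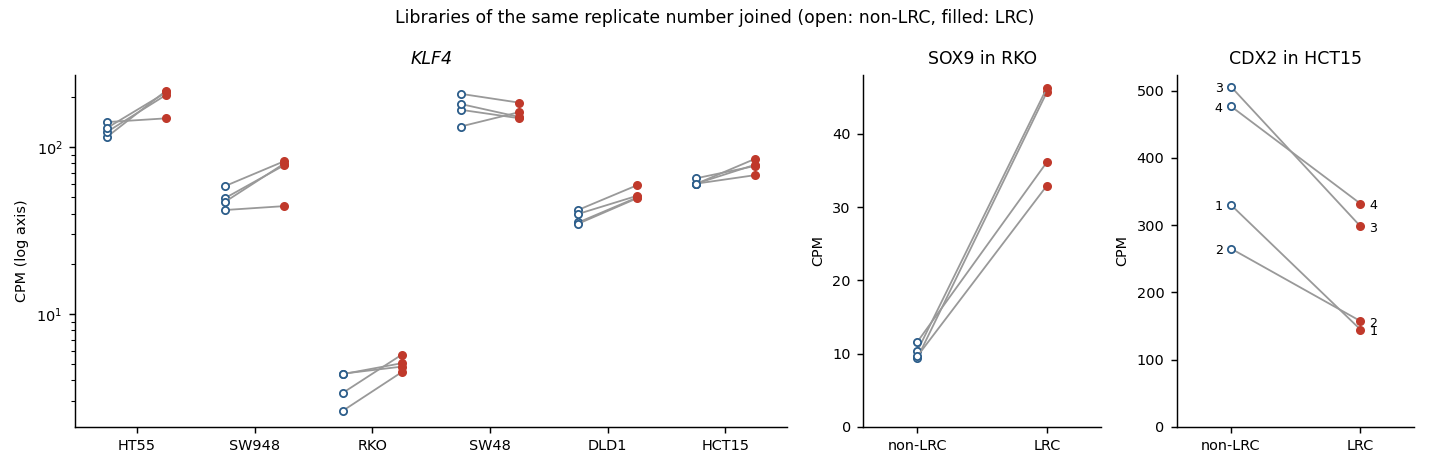
KLF4 in the 6 lines (CPM on a log axis), SOX9 in RKO and CDX2 in HCT15 (CPM on linear axes from 0), with open circles for non-LRC libraries, filled circles for LRC libraries and lines that join libraries of the same replicate number. In HCT15 the CDX2 level of the LRC library is the lower in 4 of 4 pairs.

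In HT55, 0 of 7 tested members were called by edgeR, where 0.0% of all genes were. An unadjusted p under 0.05 was found for 1 member and for 1006 of 13391 genes. DESeq2 called 1 member, KLF4, and 0.276% of all genes. In SW948, 0 of 7 were called, where 0.0% of all genes were. An unadjusted p under 0.05 was found for 3 members and for 2350 of 13674 genes. DESeq2 called 0 members and 1.79% of all genes. CDX1 in SW948 was at 73.5, 63.6, 61.9 and 76.0 CPM in LRCs against 84.8, 94.6, 75.4 and 85.3 CPM in non-LRCs, lower in 4 of 4 pairs (-0.30 on the log2 scale, adjusted p = 0.159). In SW48, 0 of 5 were called, where 0.796% of all genes were. An unadjusted p under 0.05 was found for 0 members and for 1728 of 13196 genes. DESeq2 called 0 members and 2.73% of all genes. KLF5 in SW48 was at 740.5 ± 138.1 CPM in LRCs against 640.6 ± 147.9 CPM in non-LRCs, and was called with the replicate block only (0.23, adjusted p = 0.0428 by edgeR), where 9.69% of all genes were.

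Of 58 tested other lineage factors, 12 were called across the 6 lines by edgeR, beside 22.9% of all genes, 8 higher and 4 lower in LRCs, with a median of 0.0106 on the log2 scale beside 0.0148 over all genes. PRDM1, a zinc finger repressor, was higher by 0.87 (adjusted p = 3.55e-05) and ELF3, an epithelial ETS factor, by 0.46 (adjusted p = 0.0001295). HNF4G, the paralog of HNF4A and named after its value was seen, was lower (log2 fold change -0.28, adjusted p = 0.000533). Of 34 tested products, 9 were called, 7 higher and 2 lower, with a median of 0.00334. OLFM4, a crypt glycoprotein, was higher by 1.32 (adjusted p = 2.41e-05), and its reads came almost entirely from SW948, at 124.5 CPM in LRCs against 47.7 CPM in non-LRCs. TFF3, a goblet cell peptide, was higher by 0.47 (adjusted p = 0.00178). Without the sorted DLD1 libraries 8 of 58 other factors and 5 of 34 products were called, beside 17.3% of all genes, and these 5 genes were still called (PRDM1 0.90, ELF3 0.38, HNF4G -0.23, OLFM4 1.35 and TFF3 0.59 on the log2 scale, with adjusted p of at most 0.00851 by edgeR).

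In RKO, 14 of 35 tested other factors were called, beside 41.5% of all genes, 9 higher and 5 lower. HES1, a Notch target, was higher by 3.95 on the log2 scale and PRDM1 by 3.16 (adjusted p = 9.17e-07 for both by edgeR). Of 8 tested products, CDH17 alone was called (1.2, adjusted p = 0.00615). In DLD1, 10 of 50 other factors were called, 5 in each direction, with ELF3 higher by 0.76 (adjusted p = 0.000279), and 4 of 21 products, beside 14.6% of all genes.

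The libraries labelled DLD1 were used to ask what time in culture and the dye did to the same factors without sorting. Of these, 3 stood apart. Replicate 4 of the unlabeled day 1 group correlated at 0.958 to 0.968 with its own group and at 0.977 to 0.993 with the unlabeled day 5 group. Replicates 1 and 2 of the CFSE day 1 group correlated at 0.992 with each other and at about 0.970 with replicates 3 and 4. Results are given with and without these libraries, and 6 members were tested. The share of reads outside genes also moved with day, from 12.15% to 14.8% in CFSE day 1 and 8.96% to 13.6% in unlabeled day 1 libraries (lowest in replicate 4) to 5.2% to 7.31% and 5.19% to 8.35% on day 5, and its part in the day results was not tested.

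In unlabeled cells, 1 of 6 members was called between day 5 and day 1, where 25.5% of all genes were. CDX2 was at 72.8, 75.0, 75.6 and 295.0 CPM on day 1 and 368.9, 311.1, 338.8 and 335.1 CPM on day 5. The day 1 library at 295.0 CPM was the one that resembled day 5, and all day 5 libraries were above it. CDX2 rose by 1.36 on the log2 scale (SE 0.35, adjusted p = 0.0145 by edgeR), and by 2.14 without that library. The call was lost without replicate number 1 (1.10, adjusted p = 0.172 by edgeR), 2 (1.19, adjusted p = 0.122) or 3 (1.16, adjusted p = 0.117), which leave that library in. Of all genes, 0.0% were called in each of those 3 fits. KLF5 was not called over all 16 libraries (0.42, adjusted p = 0.218 by edgeR) or without replicate 4 of unlabeled day 1 (0.52, adjusted p = 0.130). It was called without replicates 1 and 2 of CFSE day 1 (0.39, adjusted p = 0.0458), where 27.9% of all genes were. Without all 3 libraries that stood apart it was called too (0.45, adjusted p = 0.0129), where 48.5% of all genes were.

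In CFSE-labeled cells, 4 of 6 members were called between the days, where 39.3% of all genes were. CDX2 was at 44.8, 48.9, 54.5 and 53.04 CPM on day 1 and 119.3, 121.3, 175.0 and 203.8 CPM on day 5. It rose without overlap by 1.55 on the log2 scale (adjusted p = 0.00311 by edgeR), and without replicates 1 and 2 of CFSE day 1 the difference was 1.41 (adjusted p = 0.0515), while without all 3 libraries it was called (1.42, adjusted p = 0.000199). KLF4 was at 167.8, 153.1, 31.2 and 32.2 CPM on day 1 and 32.3, 33.4, 27.0 and 27.6 CPM on day 5. Its fall of 1.77 (log2 fold change -1.77, adjusted p = 0.00427) rested on the libraries at 167.8 CPM and 153.1 CPM, and without them the log2 fold change was -0.20 (adjusted p = 0.43). GATA6 (-0.69, adjusted p = 0.0119) and SOX9 (0.58, adjusted p = 0.00488) were called as well and not without those 2 libraries (-0.16, adjusted p = 0.326, and 0.32, adjusted p = 0.167).

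Between CFSE and unlabeled cells on day 1, 4 of 6 members were called, where 21.8% of all genes were. KLF4 (1.93 on the log2 scale, adjusted p = 0.00615 by edgeR) and GATA6 (0.62, 0.0334) were higher with the dye, and CDX2 (-1.32, 0.0147) and SOX9 (-0.63, 0.00680) were lower. All 4 calls were lost without replicates 1 and 2 of CFSE day 1, when 1.36% of all genes were called. KLF4 then differed by 0.30 (adjusted p = 0.413 by edgeR), GATA6 by 0.03 (0.927), CDX2 by -1.22 (0.223) and SOX9 by -0.43 (0.207). Without replicate 4 of unlabeled day 1 CDX2 differed by -0.54 (adjusted p = 0.0251), and without all 3 libraries by -0.48 (adjusted p = 0.228). On day 5, 0 of 6 members were called by edgeR, where 5.14% of all genes were. An unadjusted p under 0.05 was found for 1 member, CDX2, and for 3536 of 14518 genes. DESeq2 called 1 member and 10.5% of all genes. CDX2 on day 5 was 154.9 ± 41.6 CPM with the dye and 338.5 ± 23.7 CPM without it (-1.13, adjusted p = 0.0648), without overlap, and was called without replicate 4 of unlabeled day 1 (-1.13, adjusted p = 0.00067). Of 6 members, 0 were called by edgeR for a change with day that differed by dye, where 0.999% of all genes were called. For that change 4 members and 2474 of 14518 genes had an unadjusted p under 0.05. DESeq2 called 1 member, KLF4, and 4.24% of all genes. HNF4A ranged over 27.3 to 43.5 CPM in these libraries and was called in none of these comparisons over all 16 libraries. Without replicate 4 of unlabeled day 1 it was called with day in unlabeled cells (0.33 on the log2 scale, adjusted p = 0.0286 by edgeR) and in CFSE-labeled cells (0.29, adjusted p = 0.0383), and without all 3 libraries in neither (adjusted p = 0.0704 and 0.112).

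**Figure D5:**
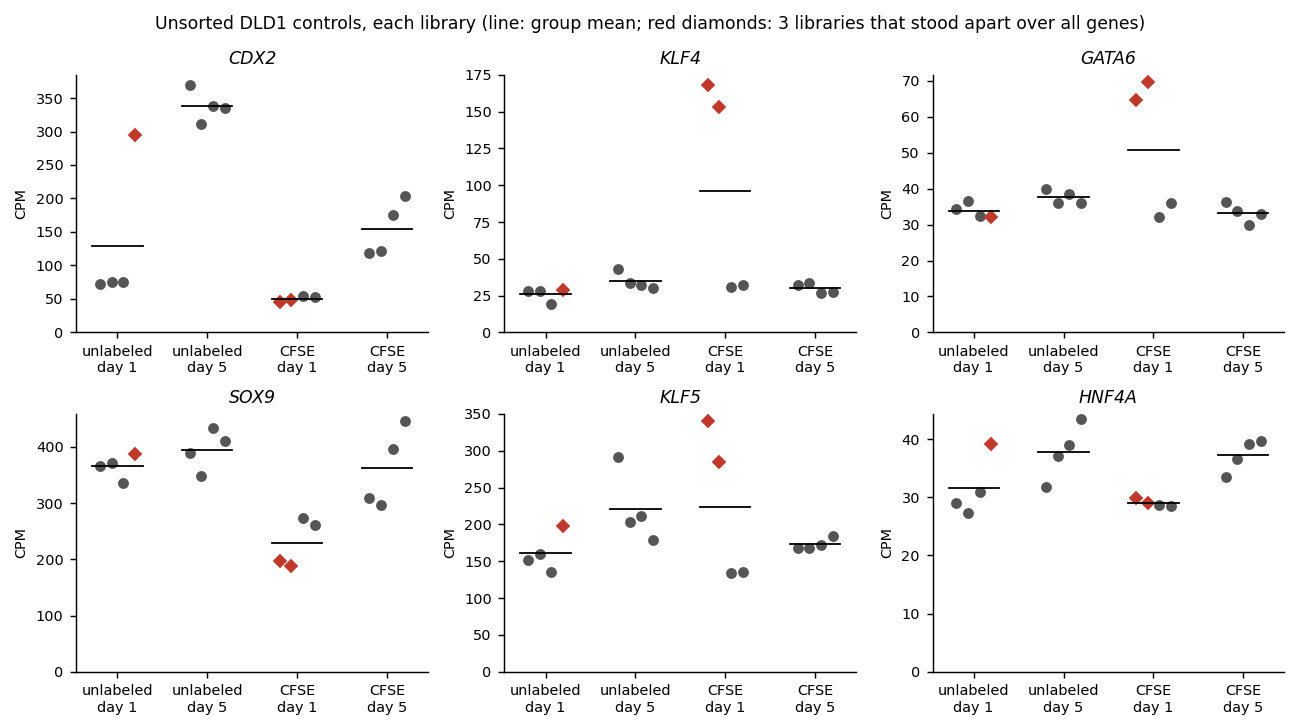
Levels of the 6 tested members in the 16 unsorted libraries labelled DLD1 by dye and day (CPM, 1 point per library, horizontal lines for group means, red diamonds for the 3 libraries that stood apart). CDX2 is higher on day 5 in both arms, with 1 unlabeled day 1 library at 295.0 CPM close to the day 5 group, and KLF4 in CFSE day 1 splits into libraries at 167.8 and 153.1 CPM and at 31.2 and 32.2 CPM.

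Of 49 tested other factors, 21 were called with day in unlabeled cells, 16 higher and 5 lower on day 5, and 21 in CFSE-labeled cells, 11 higher and 10 lower, beside 25.5% and 39.3% of all genes. Of 21 products, 6 and 11 were called. Without replicate 4 of unlabeled day 1, 30 other factors and 14 products were called in unlabeled cells, beside 43.1% of all genes, and without replicates 1 and 2 of CFSE day 1, 11 and 7 in CFSE-labeled cells, beside 19.6%. In CFSE-labeled cells, AGR2, a secretory disulfide isomerase, rose by 1.26 on the log2 scale (adjusted p = 2.1e-05 by edgeR) and VIL1 by 2.003 (adjusted p = 0.000301). ELF3 fell (log2 fold change -2.39, adjusted p = 0.00069). Without replicates 1 and 2 of CFSE day 1 all 3 were still called, AGR2 at 1.14 (adjusted p = 0.00173), VIL1 at 1.57 (adjusted p = 0.0116) and ELF3 at -0.999 (adjusted p = 0.0103). In unlabeled cells none of the 3 was called over all 16 libraries, with AGR2 at 0.097 (adjusted p = 0.579 by edgeR), VIL1 at 0.67 (adjusted p = 0.0983) and ELF3 at 0.76 (adjusted p = 0.175), of opposite sign to the CFSE arm. Without replicate 4 of unlabeled day 1, VIL1 was called there (1.02, adjusted p = 0.00786). ELF3 was called there without replicates 1 and 2 of CFSE day 1 (0.72, adjusted p = 0.0169). Without all 3 libraries that stood apart, VIL1 (0.94, adjusted p = 0.00487) and ELF3 (0.85, adjusted p = 0.00185) were called and AGR2 was not (-0.03, adjusted p = 0.843). The change with day differed by dye for ELF3 (-3.15, adjusted p = 0.0228) and AGR2 (1.16, adjusted p = 0.00864) and was not called for VIL1 (1.33, adjusted p = 0.126). Without replicates 1 and 2 of CFSE day 1 that call was lost for AGR2 (1.08, adjusted p = 0.0674) and ELF3 differed by -1.72 (adjusted p = 0.048). Both AGR2 (1.22, adjusted p = 0.0022 by edgeR) and ELF3 (-3.315, adjusted p = 0.00726) were called without replicate 4 of unlabeled day 1. They were also called without all 3 libraries that stood apart (1.19, adjusted p = 0.00628, and -1.84, adjusted p = 0.00355).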

How the data were processed

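RNA of 64 samples was sequenced as 50-base single-end reads and aligned to hg19. The authors deposited raw read counts per gene, and the submitters' processing notes name TopHat, HTSeq and DESeq, without versions. Symbols, positions and exon lengths came from GENCODE on GRCh37, and promoters from RefSeq on GRCh38.p14. Samples were grouped by the labels.

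A gene entered a fit when 4 or more of its samples held 10 counts or more. Tests used edgeR 4.0.16 in R 4.3.3 (TMM, quasi-likelihood, two-sided), with Benjamini-Hochberg adjustment over all genes and a threshold of 0.05. Standard errors (SE) were derived as the absolute log2 fold change divided by the square root of edgeR's F statistic. DESeq2 1.42.0, other filters and scalings, a replicate block and omitted libraries were alternatives. CPM used TMM over all 64 libraries, and log2 CPM a prior count of 2. A count is limited by depth, and 3 reads over a group marked the floor. Counts with near-identical or antisense partners are uncertain.

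Genes were named from the members, the 3 genes most like each and, in each comparison, the 3 other factors and 3 products with the smallest p-values, and only some of these are printed. Label-check genes, cell type markers and genes said to be named after their values were seen fall outside that rule. The members and lists were chosen with earlier results of these data known. The HNF4A and KLF motifs were first searched in a longer form, which no member window held, and shortened afterwards. Same-numbered samples deviated together (every r over 0.1) in HT55 (0.22 to 0.51), SW48 (0.19 to 0.61), DLD1 (0.25 to 0.50) and HCT15 (0.33 to 0.56), and between CFSE day 1 and CFSE day 5 (0.159 to 0.29), and not in SW948, RKO or all the unsorted groups together. On simulated counts, 66 of 100 genes changed by 1.5-fold and 100 of 100 changed by 2-fold were recovered in the RKO comparison over 12731 genes. The changed genes had a mean of at least 100 reads, the rest were left unchanged, and all genes had the same fixed dispersion. RKO libraries held 42 to 100 reads of KLF4, 39 to 89 of GATA6 and 45 to 102 of KLF5, so the recovery does not cover these members.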

Additional observations from a re-analysis of the deposited data

Results flagged for a closer look

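The 4 libraries of a group were examined for each member with a mean of at least 1 CPM there, which gave 96 sets. In 8 sets the gap from the highest or lowest library to its neighbor was large for the range of the set, where chance gives about 1 in 20, and the gap was small in absolute terms for KLF5 and KLF4 in HCT15. CDX2 was at 295 CPM in replicate 4 of unlabeled day 1, and KLF4 was at 19.16 CPM in replicate 3 of that group. HNF4A was at 180.1 CPM in HT55 LRC replicate 3. GATA6 was at 55.99 CPM in HT55 non-LRC replicate 2 and at 64.79 CPM in DLD1 non-LRC replicate 2. KLF4 was at 44.35 CPM in SW948 LRC replicate 4 and at 65.09 CPM in HCT15 non-LRC replicate 3. KLF5 was at 217.8 CPM in HCT15 LRC replicate 3.

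The effect of label retention differed between lines for SOX9 (adjusted p = 1.11e-12 by edgeR) and for CDX2 (adjusted p = 0.04706), as described above.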

How the results depend on the processing

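Calls of members depended on the fit in most comparisons; the cause was not tested. Leaving out each replicate number in turn gave 1 to 2 members called across lines, 1 to 4 for the difference between lines, 0 to 1 in HT55, 0 to 1 in SW948, 1 to 2 in RKO, 1 to 2 in DLD1, 0 to 1 for day in unlabeled cells, 3 to 5 for day with CFSE, 0 to 5 for dye on day 1, 0 to 1 for dye on day 5 and 0 to 3 for day by dye. The share of all genes called ranged likewise, in the same order over 13.7% to 18.0%, 3.2% to 17.4%, 0.0% to 6.13%, 0.0% to 7.02%, 27.3% to 37.6%, 4.35% to 11.4%, 0.0% to 44.8%, 20.0% to 40.0%, 2.36% to 23.8%, 0.0% to 11.3% and 0.0% to 7.5%. With the replicate block, 4 members were called for the difference between lines (33.6% of all genes), 1 in SW948 (3.66%), 1 in SW48 (9.69%), 4 in DLD1 (33.8%), 3 in HCT15 (21.3%) and 1 for dye on day 5 (10.4%), and the block changed no call in the other comparisons except that of KLF5 across lines. DESeq2 called 4 for the difference between lines (20.3% of all genes). It called 1 each in HT55 (0.276%), HCT15 (3.77%), dye on day 5 (10.5%) and day by dye (4.24%). Without a filter, 1 was called in HT55 (0.388% of all genes) and 2 in SW948 (3.6%). That setting called 1 for dye on day 5 (3.41%) and 1 for day by dye (1.48%). It also called 3 for the difference between lines (7.86%) and 5 for day with CFSE (19.4%). For dye on day 1 it called 5, beside 3065 of 30600 genes. With 10 counts in every sample, fewer genes were tested. Of 4 tested members, 4 differed between lines (99.3% of all genes), and 2 of 5 were called in RKO (42.6%). Over 15 pairs of lines for each of those 4 members, 55 pair tests were called. The share of all genes' pair tests called at that filter is not given here, so the 55 cannot be set against it. In 1 fit of 48 samples, 1 was called in each of HT55 (0.638% of all genes), SW948 (2.34%) and HCT15 (4.2%). Of settings added after seeing the data, omitting sorted DLD1 left 1 across lines (17.3% of all genes) and 1 for the difference between lines (12.2%). Omitting RKO left 0 for the latter (1.02%). Replicates 3 and 4 alone gave 4 in DLD1 (23.3% of all genes) and 1 in HCT15 (5.92%), and replicates 1 and 2 alone 3 in HCT15 (9.92%). Without replicate 4 of unlabeled day 1, 2 were called for day in unlabeled cells (43.1% of all genes) and 1 for dye on day 5 (13.6%). At that setting 5 were called for day with CFSE (44.1%) and 3 for dye on day 1 (18.7%). Without replicates 1 and 2 of CFSE day 1 the counts were 2 for day in unlabeled cells (27.9% of all genes), 0 for day with CFSE (19.6%) and 0 for dye on day 1 (1.36%). Without all 3 libraries they were 2 (48.5%), 1 (29.6%) and 0 (2.37%), with 1 for dye on day 5 (19.6%).

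Signs reversed in 26 cases, all given as log2 fold changes. Without RKO, GATA6 across lines was -0.003841 and SOX9 -0.03144. With library size alone, HNF4A in HT55 was -0.008654, and for day in unlabeled cells GATA6 was -0.02161 and SOX9 -0.04835. Leaving out 1 replicate number in turn gave -0.03288 to 0.02954 for HNF4A in HT55, -0.03269 to 0.05988 for SOX9 in SW948, -0.01826 to 0.2779 for CDX2 in SW48 and -0.04537 to 0.1066 for SOX9 with day in unlabeled cells. For HNF4A with dye it gave -0.1415 to 0.04167 on day 1 and -0.07518 to 0.03091 on day 5, and in day by dye -0.7239 to 0.4462 for CDX2 and -0.01077 to 0.09045 for HNF4A. Replicates 1 and 2 alone gave -0.07736 for SOX9 in DLD1. Without a filter, HNF4A with dye on day 5 was 7.598e-05. With the replicate block, whose numbers did not pair all 4 unsorted groups, CDX2 in day by dye was -0.07346. Without replicate 4 of unlabeled day 1, HNF4A with dye on day 1 was 0.02224, and in day by dye CDX2 was -0.5878 and HNF4A -0.04679. Without replicates 1 and 2 of CFSE day 1, KLF5 was 0.2411 for day with CFSE and -0.2317 for dye on day 1. Without all 3, GATA6 was -0.001398 for day in unlabeled cells and -0.02199 for dye on day 1, KLF5 0.2561 for day with CFSE and -0.1499 for dye on day 1, and CDX2 -0.6416 in day by dye.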

Other observations

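The 16 unsorted libraries labelled DLD1 lacked genes that marked sorted DLD1 and held genes that marked sorted HCT15, among genes chosen after their values were seen. MUC5AC, a gastric mucin, was at 73.9 to 108.7 CPM in sorted DLD1, 0 to 0.120 CPM in sorted HCT15 and 0 to 0.566 CPM in the unsorted libraries. LGR5, a receptor of crypt stem cells, was at 26.9 to 60.4 CPM, 0 to 0.325 CPM and 0.186 to 1.43 CPM in the same order. CA9, a carbonic anhydrase, was at 0 to 0.235 CPM, 17.4 to 31.4 CPM and 7.48 to 92.4 CPM, and MRC2, a collagen receptor, at 0.196 to 1.65 CPM, 45.9 to 92.8 CPM and 9.67 to 63.1 CPM. SOX9 was at 642.9 to 857.3 CPM, 351.6 to 552.1 CPM and 188.8 to 446.1 CPM.

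SOX9-AS1 had a mean of 1.16 CPM in CFSE day 1 and 3.18 CPM in CFSE day 5 (log2 fold change 1.37, adjusted p = 0.0203 by edgeR), the same direction as SOX9 there.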
